A study of Homo sapiens with 12 samples.

Results

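The genes described here are 10 members and readouts of transforming growth factor beta (TGF-beta) and bone morphogenetic protein (BMP) signalling. They were chosen by symbol, with earlier results of these data known, so counts set beside all genes only describe them. They are the ligand genes TGFB1, INHBA and BMP4, the receptor genes TGFBR1 and TGFBR2, the signal transducers SMAD3 and SMAD7, and the target genes TGFBI, ID1 and ID3. All 10 were found among the 56609 symbols of the deposited count table, and all 10 were among the 21698 genes with enough reads to be tested. RNA was sequenced from 12 samples of A375, an established melanoma line of human origin, in 4 groups of 3: wild-type cells in DMSO, wild-type cells in JQ1, cells with a CRISPR/Cas9 knockout of MAPKAPK2 in DMSO, and knockout cells in JQ1. JQ1 displaces BET bromodomain proteins from acetylated chromatin and was given at 500 nM; DMSO is its solvent, and both exposures lasted 48 h. MAPKAPK2 encodes MK2, a stress kinase activated by p38. The labels do not say whether the knockout cells were 1 clone or a pool, nor whether replicates were separate cultures, so the p-values below measure only the spread between these samples, which may be technical.

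TGF-beta family ligands are secreted dimers that bring type II and type I receptor kinases together. TGF-beta and activin receptors phosphorylate SMAD2 and SMAD3, BMP receptors phosphorylate SMAD1, SMAD5 and SMAD9, and both kinds of SMAD enter the nucleus with SMAD4; SMAD6 and SMAD7 are inhibitors that the pathway induces against itself. Melanocytes stop dividing in TGF-beta, whereas melanoma cells often secrete these ligands and have lost that arrest.

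The libraries held between 25316899 and 34594295 estimated counts. Levels are given as counts per 1000000 counts of the scaled library (CPM), which are not divided by gene length, so they compare a gene across groups and not one gene with another. The targeted gene, MAPKAPK2, averaged 89.6 ± 2.20 CPM in DMSO and 117 ± 4.31 CPM in JQ1 in wild-type cells, and 12.4 ± 1.15 and 14.4 ± 1.61 CPM in the same order in knockout cells (SD, n = 3). The melanocyte-lineage genes SOX10, CSPG4, MITF and S100B were expressed in every group, with group means of at least 28.8 CPM, while the pigment genes PMEL and MLANA were at or under 1.18 CPM and TYR and DCT were near 0. Summed over 5 fibroblast markers, wild-type libraries held 22.6 to 23.2 CPM in DMSO and 14.3 to 16.8 in JQ1, and knockout libraries 17.3 to 18.7 and 9.81 to 12.1; this sum moved with drug and genotype, and its part in the results below was not tested. The markers did not move as one: PDGFRB and LUM were lower with JQ1 in both genotypes and DCN and COL1A1 in wild type, while PDGFRA was higher by 0.64 in wild type and 0.61 in knockout on the log2 scale (edgeR adjusted p = 0.00161 and 0.00314). COL1A1 and DCN of these markers are also pathway genes in the lists below. Sums over 4 epithelial, 3 endothelial and 4 leukocyte markers were each at most 2.35 CPM in a library, and CDH1, an epithelial marker, had no reads in any. Knockout JQ1 replicate 3 stood apart: its chi-square statistic per degree of freedom against its replicates was 26.1 to 27.5, against 3.35 to 7.64 for the other replicate pairs, and its share of 4 abundant noncoding RNAs was the highest, at 14.6% of counts against 9.42% in the lowest library. The results of the 10 genes that turn on it, and the counts of calls, are therefore also given without it.

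The stretches upstream of 3 genes are shown, picked by their RNA levels: TGFBI differed most between the genotypes, and TGFB1 and ID1 followed each other most closely across libraries. No RNA result here uses these stretches. Each was taken from RefSeq (build GRCh38.p14), reads 5′ to 3′ on the gene's strand, and ends before the first annotated exon. Capitals mark GGCGCC, the core of a GC-rich element bound by SMAD proteins.
TGFBI, chr5:136028738-136028894, plus strand: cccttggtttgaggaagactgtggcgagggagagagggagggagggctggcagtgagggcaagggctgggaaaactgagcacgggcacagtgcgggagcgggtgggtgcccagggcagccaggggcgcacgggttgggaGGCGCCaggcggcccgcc
TGFB1, chr19:41353923-41354172, minus strand: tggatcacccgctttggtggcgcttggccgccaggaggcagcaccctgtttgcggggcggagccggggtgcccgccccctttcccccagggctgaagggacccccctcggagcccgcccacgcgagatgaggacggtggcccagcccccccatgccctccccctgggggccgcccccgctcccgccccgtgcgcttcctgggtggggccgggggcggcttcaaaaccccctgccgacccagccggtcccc
ID1, chr20:31605039-31605282, plus strand: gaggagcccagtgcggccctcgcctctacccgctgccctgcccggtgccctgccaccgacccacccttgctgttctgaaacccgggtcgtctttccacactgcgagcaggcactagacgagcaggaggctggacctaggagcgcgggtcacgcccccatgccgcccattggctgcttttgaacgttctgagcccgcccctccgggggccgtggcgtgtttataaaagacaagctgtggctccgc
The 250-base windows before the RefSeq transcription starts of the 10 genes were searched on both strands. GGCGCC was found in 3 (TGFBI, SMAD3 and BMP4) and in 16.4% of the windows of 35116 genes. By the GENCODE positions used here, the windows of TGFBR1, SMAD3, SMAD7, INHBA, BMP4 and ID3 lie inside the gene, not upstream of it. The SMAD palindrome GTCTAGAC and CAGACA, the core of the TGF-beta responsive CAGA box, were in no window of the 10 and in 0.182% and 13.6% of all windows. In TGFBI the match begins 111 bases before the RefSeq transcription start. A match describes letters and is not evidence of binding.

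The ligands TGFB1 and INHBA moved in opposite directions with JQ1. TGFB1 encodes TGF-beta 1 and lies at chr19:41301587-41353911 on the minus strand (GRCh38). In wild-type DMSO its levels were 29.03, 32.1 and 31.3 CPM, and in wild-type JQ1 they were 58.3, 54.3 and 46.6 CPM. In knockout DMSO they were 25.2, 34.4 and 31.1 CPM, and in knockout JQ1 45.8, 49.99 and 66.6 CPM. Every JQ1 library was above every DMSO library, while the genotypes overlapped in both treatments. With edgeR's quasi-likelihood test and Benjamini-Hochberg adjustment over all tested genes, TGFB1 rose by 0.79 on the log2 scale in wild type (1.72-fold, SE 0.14, adjusted p = 4.14e-04) and by 0.84 in knockout (1.79-fold, SE 0.14, adjusted p = 2.08e-04). Without knockout JQ1 replicate 3, the highest library, the rise in knockout was 0.67 (edgeR adjusted p = 2.40e-04). In bulk RNA such as this, fewer cells that express a gene and less RNA of it per cell cannot be told apart. TGFB1 also overlaps 4 genes on the other strand, among them HNRNPUL1 at a mean of 282 CPM, and whether counting used the strand is not given in the sources used here.

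INHBA encodes the beta A subunit of activin A, which signals through SMAD2 and SMAD3 as TGF-beta does; it lies at chr7:41667168-41705834 on the minus strand. Its levels were 547, 591 and 577 CPM in wild-type DMSO and 329, 383 and 363 CPM in wild-type JQ1. Knockout DMSO libraries held 559.9, 504 and 489 CPM, and knockout JQ1 libraries 291, 329 and 236 CPM. All JQ1 libraries lay below all DMSO libraries. INHBA fell by 0.67 on the log2 scale in wild type (SE 0.10, edgeR adjusted p = 8.93e-05), to 0.627 of its DMSO level, and by 0.86 in knockout (SE 0.10, edgeR adjusted p = 8.42e-06; -0.74 without knockout JQ1 replicate 3, edgeR adjusted p = 1.66e-06). Under JQ1 the knockout differed from wild type by -0.33 (SE 0.10, edgeR adjusted p = 0.0505), with overlapping libraries; this just missed the threshold of 0.05 here and passed it with DESeq2 (adjusted p = 0.0259). Without knockout JQ1 replicate 3, the lowest library, the difference was -0.21 (edgeR adjusted p = 0.0862).

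BMP4, a BMP ligand, was scarce, with 80 to 142 reads per library. It held 3.19, 4.04 and 3.90 CPM in wild-type DMSO and 3.74, 3.53 and 3.34 CPM in wild-type JQ1. The knockout libraries held 2.85, 3.67 and 3.55 CPM in DMSO and 3.43, 3.25 and 2.88 CPM in JQ1. All 4 groups overlapped. No difference passed the test, and the log2 change with JQ1 was -0.07 in wild type (95% interval -0.37 to 0.24) and -0.08 in knockout (95% interval -0.39 to 0.24), so a change beyond these bounds was not seen at this depth.

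**Figure D1:**
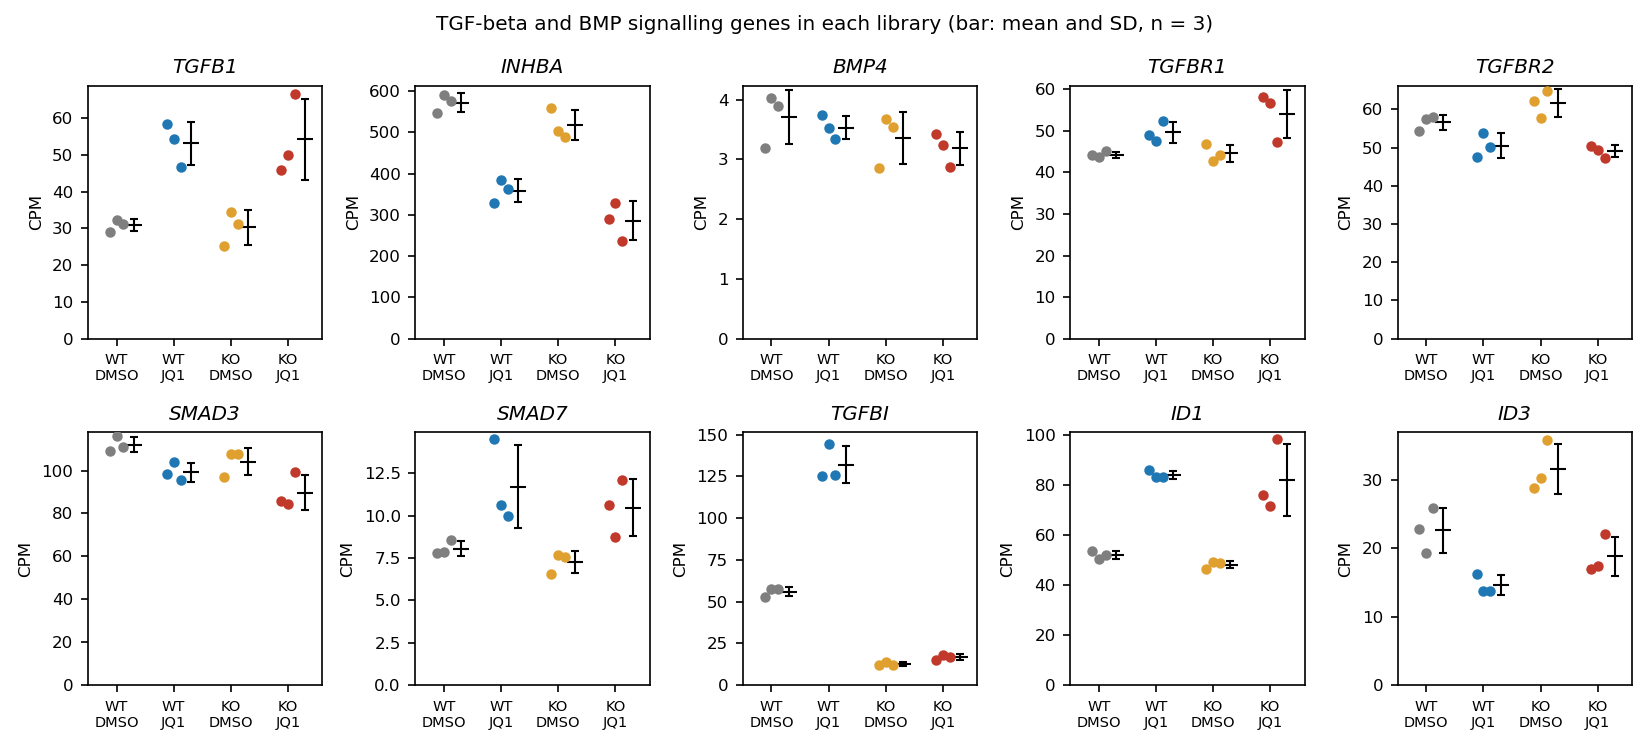
Level of each of the 10 genes in CPM (vertical axes, linear from 0) in every library, by group (WT, wild type; KO, MAPKAPK2 knockout); points are libraries and bars the mean and SD of 3. TGFB1, SMAD7 and ID1 are higher and INHBA and ID3 lower in JQ1 in both genotypes, and TGFBI stays at or under 18.2 CPM in all 6 knockout libraries.

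The receptor genes changed little. TGFBR1, the type I receptor kinase, was at 44.2, 43.6 and 45.1 CPM in wild-type DMSO, 49.1, 47.6 and 52.5 CPM in wild-type JQ1, 46.7, 42.9 and 44.2 CPM in knockout DMSO, and 58.3, 56.6 and 47.5 CPM in knockout JQ1. TGFBR2, the type II receptor that binds the ligand first, was at 54.5, 57.6 and 57.97 CPM in wild-type DMSO, 47.6, 53.9 and 50.2 CPM in wild-type JQ1, 62.3, 57.9 and 64.9 CPM in knockout DMSO, and 50.3, 49.5 and 47.3 CPM in knockout JQ1. In each genotype the JQ1 libraries lay above the DMSO libraries for TGFBR1 and below them for TGFBR2. In knockout, TGFBR1 rose by 0.28 on the log2 scale (SE 0.08, edgeR adjusted p = 0.0109) and TGFBR2 fell by 0.33 (SE 0.07, edgeR adjusted p = 0.00110). In wild type the changes were 0.17 (edgeR adjusted p = 0.110) and -0.17 (edgeR adjusted p = 0.0653), and neither passed the test. In wild type TGFBR1 passed in 2 of 21 alternatives and TGFBR2 in 5. Both passed without knockout JQ1 replicate 3 (0.17 and -0.16, edgeR adjusted p = 0.0199 and 0.0374). Both also passed with only the groups compared in the fit (0.19 and -0.15, edgeR adjusted p = 0.0123 and 0.0441). These responses were not shown to differ between genotypes: the interaction, the knockout response minus the wild-type response, was 0.11 for TGFBR1 and -0.17 for TGFBR2 (edgeR adjusted p = 0.841 and 0.663). The TGFBR1 call in knockout was lost when libraries were scaled by their totals alone (0.16, edgeR adjusted p = 0.150), with only the groups compared in the fit (0.27, edgeR adjusted p = 0.0660) and without knockout DMSO replicate 2 (0.25, edgeR adjusted p = 0.0610). In knockout without JQ1 replicate 3, TGFBR1 changed by 0.37 and TGFBR2 by -0.30 (edgeR adjusted p = 1.83e-04 and 0.00213).

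The 2 SMAD genes differed in direction. SMAD7, the inhibitory SMAD, lies at chr18:48919853-48952052 on the minus strand; it was at 7.78, 7.83 and 8.55 CPM in wild-type DMSO and at 14.5, 10.6 and 9.97 CPM in wild-type JQ1. In knockout it was at 6.54, 7.66 and 7.58 CPM in DMSO and at 10.6, 8.72 and 12.1 CPM in JQ1. No JQ1 library overlapped a DMSO library. SMAD7 rose by 0.54 on the log2 scale in wild type (SE 0.15, edgeR adjusted p = 0.0110) and by 0.53 in knockout (SE 0.15, edgeR adjusted p = 0.0124). Both calls rested on single libraries: without wild-type JQ1 replicate 1 the wild-type rise was 0.35 (edgeR adjusted p = 0.0728), and without knockout DMSO replicate 1 the knockout rise was 0.46 (edgeR adjusted p = 0.0517). The knockout rise was 0.42 without knockout JQ1 replicate 3, the highest of its group (edgeR adjusted p = 0.0493).

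SMAD3, the transducer of TGF-beta and activin signals, was at 109, 116 and 111 CPM in wild-type DMSO and at 98.2, 104 and 95.4 CPM in wild-type JQ1. Knockout libraries held 96.8, 108 and 108 CPM in DMSO and 85.7, 84.4 and 99.2 CPM in JQ1. The knockout JQ1 and DMSO libraries overlapped. SMAD3 fell by 0.21 in knockout (SE 0.07, edgeR adjusted p = 0.0284), while its wild-type change of -0.18 did not pass (edgeR adjusted p = 0.0659). The wild-type change passed in 4 of 21 alternatives. Among them were the fit without knockout JQ1 replicate 3 (-0.17, edgeR adjusted p = 0.0149) and that with only the groups compared (-0.16, edgeR adjusted p = 0.0117). The knockout call was lost in 7 alternatives: without knockout DMSO replicate 2 or 3 or knockout JQ1 replicate 1 or 2 (-0.19 to -0.17, edgeR adjusted p from 0.0843 to 0.117), with only the groups compared in the fit (-0.22, edgeR adjusted p = 0.0802), and with limma on the authors' signal (-0.25 at pseudocounts 1 and 0.5, limma adjusted p = 0.0518 and 0.0531). The change was -0.29 without knockout JQ1 replicate 3, the highest of its group (edgeR adjusted p = 0.00132).

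Among the target genes, TGFBI gave the largest differences of the 10 in both genotype comparisons. It encodes a secreted matrix protein that binds collagen and integrins, named for its induction by TGF-beta, and lies at chr5:136028895-136063818 on the plus strand. In wild-type DMSO its levels were 52.6, 57.6 and 57.3 CPM, and in wild-type JQ1 125, 145 and 126 CPM. In knockout DMSO they were 11.7, 13.9 and 11.7 CPM, and in knockout JQ1 15.04, 18.2 and 16.9 CPM. The groups did not overlap, and their order from highest to lowest was wild-type JQ1, wild-type DMSO, knockout JQ1 and knockout DMSO. TGFBI was 4.49-fold lower in knockout than in wild type in DMSO (log2 fold change -2.17, SE 0.09, edgeR adjusted p = 1.82e-09) and 7.90-fold lower in JQ1 (-2.98, SE 0.09, edgeR adjusted p = 3.29e-11). JQ1 raised it by 1.24 on the log2 scale in wild type (2.36-fold, SE 0.08, edgeR adjusted p = 6.10e-08) and by 0.43 in knockout (1.34-fold, SE 0.10, edgeR adjusted p = 0.00290), the latter 0.42 without knockout JQ1 replicate 3 (edgeR adjusted p = 0.00651).

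The JQ1 response of TGFBI was smaller in knockout by a log2 difference of -0.81 (SE 0.13, 95% interval -1.09 to -0.54, edgeR adjusted p = 0.0208), which was tested directly. It was the only 1 of the 10 genes to pass this test, which 0.134% of all tested genes passed (0.101% toward a lower value in knockout). The value kept its size in all 20 alternatives, from -0.88 to -0.74, but leaving out any 1 of 7 libraries lost the call: any of the 3 wild-type DMSO libraries, replicate 1 or 2 of wild-type JQ1, or replicate 2 or 3 of knockout DMSO, with edgeR adjusted p from 0.05005 to 0.0735. Without knockout JQ1 replicate 3 the difference was -0.82 (edgeR adjusted p = 0.0116). On the linear scale the JQ1 libraries of the wild type averaged 132 CPM against 55.8 in DMSO, and those of the knockout 16.7 against 12.4 CPM.

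ID1 and ID3 encode helix-loop-helix proteins without a DNA-binding region, which hold partner transcription factors off DNA and are direct targets of BMP SMADs. The pair moved in opposite directions with JQ1. ID1, at chr20:31605283-31606515 on the plus strand, was at 53.8, 50.5 and 51.98 CPM in wild-type DMSO and 86.1, 83.5 and 83.2 CPM in wild-type JQ1. In knockout it was at 46.5, 49.2 and 49.01 CPM in DMSO and 76.002, 71.8 and 98.5 CPM in JQ1. All JQ1 libraries lay above all DMSO libraries. ID1 rose by 0.69 in wild type (1.62-fold, SE 0.09, edgeR adjusted p = 4.27e-05) and by 0.77 in knockout (1.704-fold, SE 0.09, edgeR adjusted p = 1.50e-05); without knockout JQ1 replicate 3, its highest library, the latter was 0.62 (edgeR adjusted p = 4.06e-07).

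ID3, at chr1:23557918-23559794 on the minus strand, was at 22.8, 19.3 and 25.8 CPM in wild-type DMSO and 16.3, 13.8 and 13.8 CPM in wild-type JQ1. In knockout it was at 28.8, 30.3 and 35.8 CPM in DMSO and 16.9, 17.4 and 22.2 CPM in JQ1. Within each genotype the JQ1 libraries were the lower ones, and within each treatment the knockout libraries were the higher ones. ID3 fell by 0.64 with JQ1 in wild type (SE 0.13, edgeR adjusted p = 0.00158) and by 0.74 in knockout (SE 0.13, edgeR adjusted p = 3.64e-04), where the change was -0.88 without knockout JQ1 replicate 3 (edgeR adjusted p = 4.61e-05). Knockout was higher than wild type by 0.48 in DMSO (SE 0.13, edgeR adjusted p = 0.0292) and by 0.37 in JQ1 (edgeR adjusted p = 0.108), which did not pass. Without knockout JQ1 replicate 3, the highest of its group, the JQ1 difference was 0.23 (edgeR adjusted p = 0.293). It passed without a low-count filter (0.36, edgeR adjusted p = 0.0221). The DMSO call was lost without knockout DMSO replicate 2 (0.52, edgeR adjusted p = 0.0506) or 3 (0.39, edgeR adjusted p = 0.138) and without wild-type DMSO replicate 1 (0.49, edgeR adjusted p = 0.0812) or 2 (0.39, edgeR adjusted p = 0.131).

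**Figure D2:**
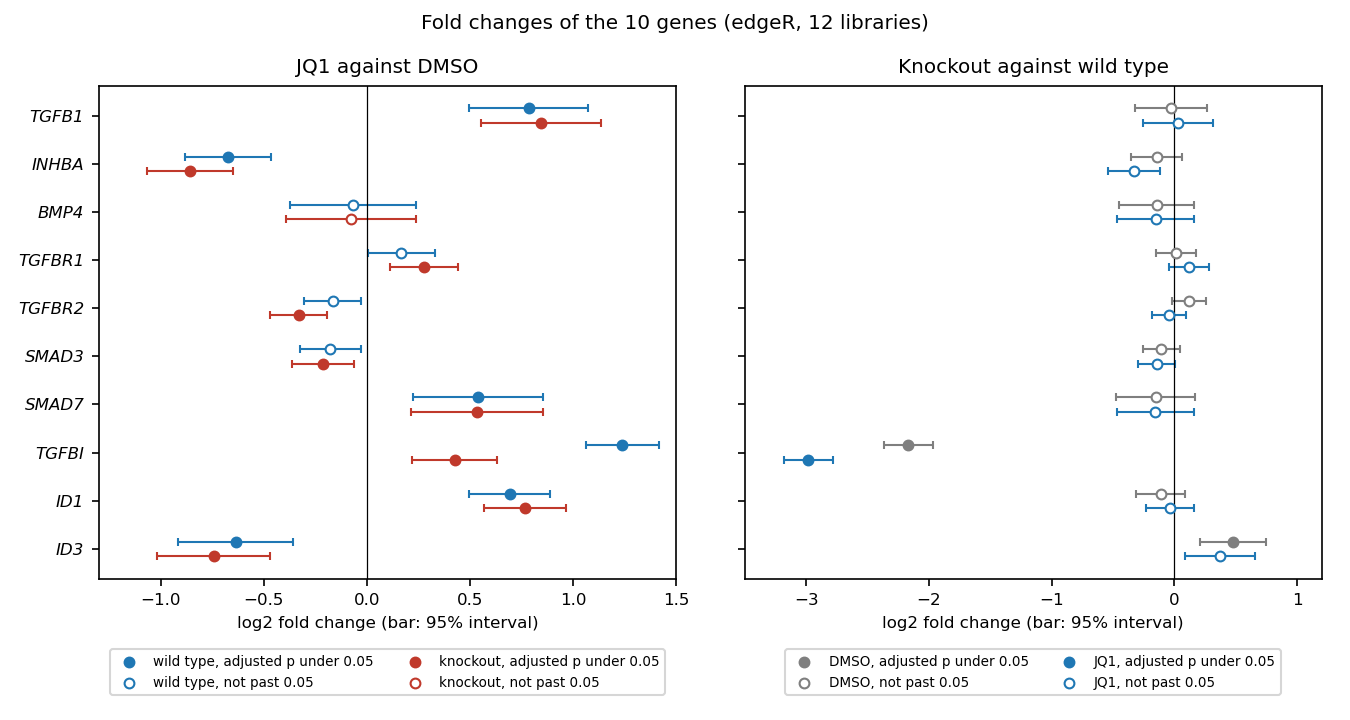
Log2 fold changes of the 10 genes with 95% intervals from the edgeR fit to 12 libraries: JQ1 against DMSO in each genotype (left) and knockout against wild type in each treatment (right). Filled points passed an adjusted p of 0.05; on the left only TGFBI has intervals that do not overlap between the genotypes, and on the right TGFBI stands at -2.17 and -2.98 while the other 9 genes lie between -0.33 and 0.48.

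Counted together, 6 of the 10 genes passed the test for JQ1 in wild type, 4 higher and 2 lower, where 33.1% of all tested genes passed (16.9% higher and 16.2% lower). In knockout 9 of 10 passed, 5 higher and 4 lower, against 34.4% of all genes (16.7% higher and 17.8% lower). All 6 genes called in wild type were called in knockout in the same direction; over all tested genes 25.2% were called in both in the same direction, which is 76% of those called in wild type. Libraries of JQ1 and DMSO did not overlap for 9 of 10 genes in wild type and 8 of 10 in knockout, against 50.4% and 42.3% of all genes. The median log2 fold change of the 10 was 0.05 in wild type and 0.10 in knockout, and the median of its absolute size 0.59 and 0.48, against 0.29 and 0.30 over all tested genes. Without knockout JQ1 replicate 3, 9 of 10 passed in both genotypes, against 38.0% of all genes in wild type and 33.6% in knockout. With libraries scaled by their totals alone, which moved the median of all tested genes from -0.03 to -0.16 in wild type and from -0.0035 to -0.12 in knockout, 4 rose and 4 fell in each genotype. The all-gene shares include genes under 1 CPM. In a fit limited to genes averaging at least 1 CPM, 6625 of 15423 passed in wild type and 7046 of 15423 in knockout. The 10 genes were chosen with earlier results of these data known, so these comparisons are descriptions.

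Genotype moved fewer of them. Knockout differed from wild type in DMSO for 2 of 10, with ID3 higher and TGFBI lower, against 7.92% of all genes (3.47% higher and 4.44% lower). In JQ1 it differed for 1 of 10, TGFBI, which was lower, against 8.57% of all genes (5.56% lower). Libraries of the genotypes did not overlap for 5 of 10 in DMSO and 2 of 10 in JQ1, against 29.6% and 23.1% of all genes. The median absolute log2 difference of the 10 was 0.13 in DMSO and 0.15 in JQ1, next to 0.16 and 0.16 over all tested genes. Without knockout JQ1 replicate 3, 4 of 10 passed in JQ1, against 10.5% of all genes: TGFBI at -2.99, TGFBR1 at 0.21, SMAD3 at -0.22 and ID1 at -0.19 (edgeR adjusted p from 3.06e-11 to 0.0364). The DMSO comparison of the genotypes and the JQ1 response of the wild type share the wild-type DMSO libraries.

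The other genes of the pathway were taken from 7 lists, which held 96 genes besides the 10, of which 75 could be tested. A few genes stand in more than 1 list. The lists too were chosen with earlier results of these data known, so their shares beside those of all genes are descriptions. With JQ1, 43 of the 75 passed in wild type (57.3%, 22 higher and 21 lower), against 33.1% of all tested genes. In knockout 40 passed (53.3%, 21 higher and 19 lower), against 34.4% of all tested genes. Of these genes, 34 passed in both genotypes, each in the same direction. That is 34 of the 43 called in wild type, next to the 76% over all tested genes given above. Scaled by library totals alone, the split was 16 higher and 26 lower in wild type and 17 higher and 27 lower in knockout. Over all tested genes that setting gave 2298 higher and 5368 lower in wild type, and 2409 and 5250 in knockout. Knockout against wild type gave 14 of 75 in DMSO (18.7%, 5 higher and 9 lower), against 7.92% of all tested genes. In JQ1 it gave 11 (14.7%, 3 higher and 8 lower), against 8.57%. Without knockout JQ1 replicate 3, 44 passed for JQ1 in knockout (22 higher, 22 lower), against 33.6% of all genes. For genotype in JQ1, 14 passed without it (3 higher, 11 lower), against 10.5% of all genes. Single pathway genes were checked without it only where the naming rule given under processing picked that gene in that contrast. Those 25 results kept their direction and call. The changes of LTBP4, FN1 and MSX2 with JQ1 in knockout, given below, were not among them. The median absolute log2 change with JQ1 was 0.48 in wild type and 0.44 in knockout, against 0.29 and 0.30 over all tested genes. The all-gene shares here and below include genes under 1 CPM, and are larger for JQ1 without them. In a fit limited to genes averaging at least 1 CPM, 6625 of 15423 passed for JQ1 in wild type and 7046 in knockout. For genotype, 1658 passed in DMSO and 1875 in JQ1.

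Of 13 other ligand genes, 4 rose and 2 fell with JQ1 in wild type (46.2%), and 4 rose and 3 fell in knockout (53.8%). Over all tested genes the shares that passed were 33.1% in wild type and 34.4% in knockout. GDF11, a ligand that signals like activin, averaged 97.3 CPM in DMSO and 159 CPM in JQ1 in wild type, a log2 rise of 0.71, and rose by 0.80 in knockout (edgeR adjusted p = 3.56e-07 and 8.50e-08). BMP8B rose by 0.84 and 1.12 (edgeR adjusted p = 6.63e-06 and 4.23e-07). TGFB3, a further TGF-beta isoform, fell by 0.89 and 1.08 (edgeR adjusted p = 0.0114 and 0.00253), opposite to TGFB1. GDF15, a stress-induced distant relative, fell by 2.31 in wild type (edgeR adjusted p = 4.67e-05), and in knockout it went from 19 to 28 reads per DMSO library to 0, 0 and 3 reads in JQ1.

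Of 12 other receptor and co-receptor genes, 2 rose and 4 fell with JQ1 in wild type, and 1 rose and 4 fell in knockout. That is 50% and 41.7%, next to 33.1% and 34.4% of all tested genes. ACVR2B, an activin receptor, averaged 65.1 CPM in wild-type DMSO and 35.3 CPM in wild-type JQ1, and fell by 0.88 and 0.85 in the wild type and the knockout (edgeR adjusted p = 5.94e-08 and 7.01e-08). ENG, the co-receptor endoglin, fell by 0.76 and 0.84 (edgeR adjusted p = 4.05e-05 and 1.59e-05), and BMPR1B, a BMP type I receptor, fell by 1.42 and 1.44 from 50 to 80 reads per DMSO library (edgeR adjusted p = 1.23e-04 and 1.01e-04). ACVR1C, the type I receptor ALK7, was instead higher in knockout than in wild type, by 1.21 in DMSO and 0.78 in JQ1 (edgeR adjusted p = 0.00136 and 0.0287), the latter lost without knockout JQ1 replicate 1 or 2 or wild-type JQ1 replicate 1 or 2 (0.67 to 0.76, edgeR adjusted p from 0.0872 to 0.117).

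**Figure D3:**
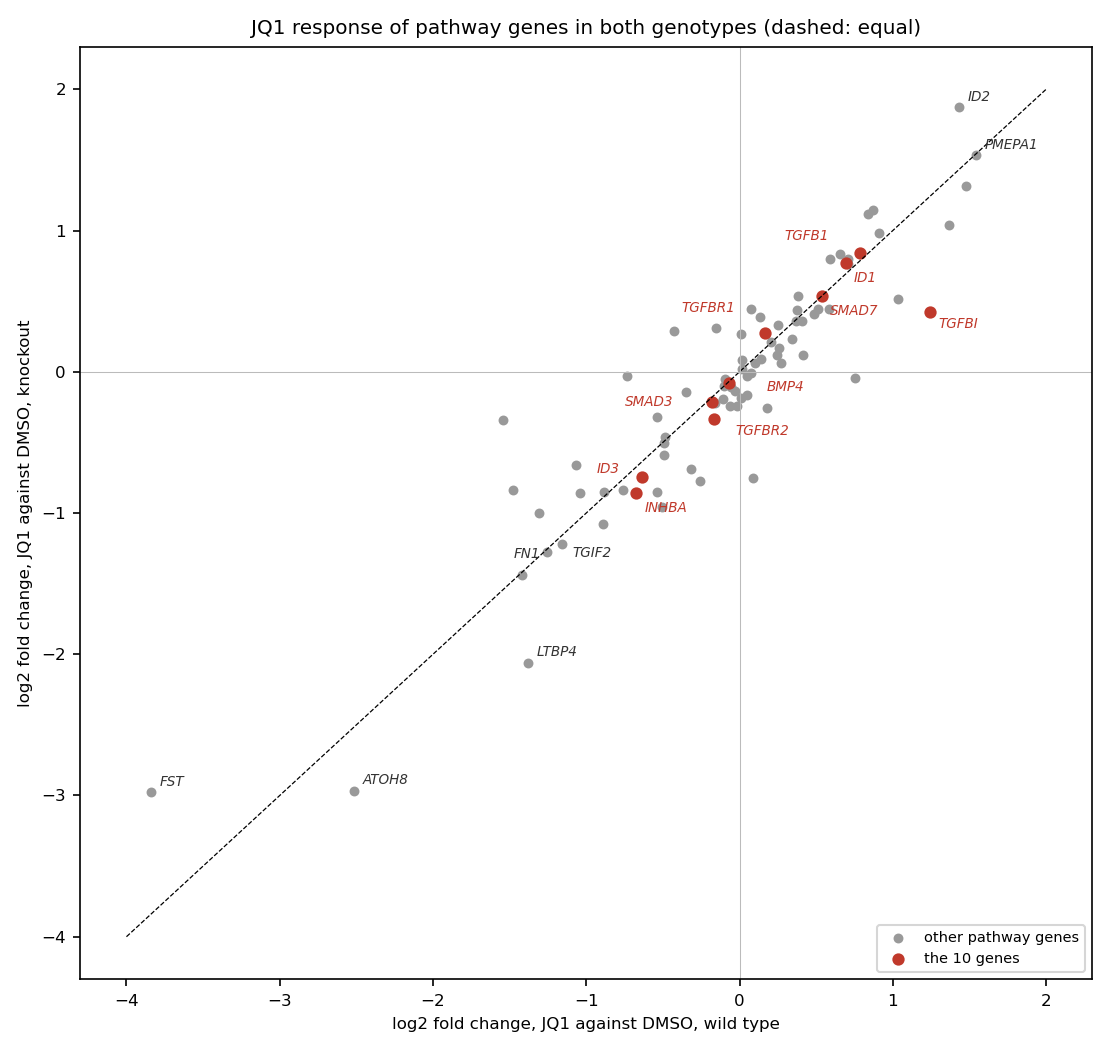
Log2 fold change with JQ1 in wild type (horizontal) and in knockout (vertical) for the 10 genes (red) and the other tested pathway genes (grey) except GDF15, which had 0 to 3 reads per library in knockout JQ1; the dashed line marks equal responses. Most genes lie near the line, TGFBI lies below it at 1.24 and 0.43, and FST lies above it at -3.84 and -2.98.

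Of 6 other SMAD genes, 2 fell with JQ1 in wild type (33.3%) and 1 in knockout (16.7%), against 33.1% and 34.4% of all tested genes. SMAD1, a transducer of BMP signals, fell by 0.49 and 0.59 (edgeR adjusted p = 0.00644 and 0.00157). SMAD6, the inhibitory SMAD of the BMP branch, fell by 0.54 in wild type (edgeR adjusted p = 0.0136), whereas SMAD7 rose; this call was lost without the third wild-type replicate in DMSO (-0.47, edgeR adjusted p = 0.0553) or in JQ1 (-0.40, edgeR adjusted p = 0.0690). SMAD6 was also lower in knockout than in wild type in DMSO (-0.58, edgeR adjusted p = 0.0277), a call lost on leaving out any 1 of the 6 DMSO libraries (-0.61 to -0.51, edgeR adjusted p from 0.0578 to 0.112).

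Of 15 intracellular regulators, 7 rose and 1 fell with JQ1 in wild type, and 6 rose and 2 fell in knockout. The share was 53.3% in each genotype, next to 33.1% and 34.4% of all tested genes. PMEPA1, a target gene whose product limits SMAD activation, was at 105, 113 and 112 CPM in wild-type DMSO and 319.6, 343 and 302 CPM in wild-type JQ1. In knockout it was at 84.7, 94.9 and 91.1 CPM in DMSO and 232, 252 and 299 CPM in JQ1. It rose by 1.54 and 1.53 (edgeR adjusted p = 7.12e-09 and 6.35e-09), with an interaction of -0.01 (SE 0.12, edgeR adjusted p = 0.990). TGIF1 and TGIF2, related repressors of SMAD-driven transcription, went opposite ways: TGIF1 rose by 0.66 and 0.84 and TGIF2 fell by 1.16 and 1.22 (edgeR adjusted p at most 2.47e-05 in these 4 tests).

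Among 12 extracellular modulators, which bind ligands or hold them in the matrix, 1 rose and 7 fell with JQ1 in wild type. In knockout 3 rose and 5 fell. The share was 66.7% in each genotype, against 33.1% and 34.4% of all tested genes. FST encodes follistatin, a secreted antagonist of activin. It was at 263, 249.99 and 262 CPM in wild-type DMSO and 20.5, 17.3 and 16.4 CPM in wild-type JQ1. Knockout libraries held 166, 156 and 166 CPM in DMSO and 20.7, 19.6 and 21.5 CPM in JQ1. Wild type was the higher genotype in DMSO, and under JQ1 the genotypes overlapped at a level below every DMSO library. FST fell by 3.84 in wild type (14.3-fold, SE 0.08, edgeR adjusted p = 5.75e-13) and by 2.98 in knockout (7.88-fold, SE 0.08, edgeR adjusted p = 4.87e-12). It was the single gene of the 75 whose response differed between genotypes, by 0.86 (SE 0.10, edgeR adjusted p = 0.00838), and this held in all 20 alternatives (0.79 to 0.96). In DMSO the knockout was lower (log2 difference -0.67, SE 0.07, edgeR adjusted p = 1.98e-05).

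CHRDL1, a secreted BMP antagonist, went against the direction of FST between the genotypes. It was at 58.4, 63.98 and 64.04 CPM in wild-type DMSO and 28.7, 32.99 and 29.1 CPM in wild-type JQ1, and at 145, 145 and 144 CPM in knockout DMSO and 81.6, 84.96 and 72.8 CPM in knockout JQ1. The 4 groups did not overlap, with knockout DMSO highest and wild-type JQ1 lowest. CHRDL1 fell with JQ1 by 1.04 and 0.86 and was higher in knockout by 1.22 in DMSO and 1.40 in JQ1 (edgeR adjusted p at most 3.40e-07). FSTL1, a follistatin-like secreted protein, fell by 1.31 and 1.00, and LTBP4, which tethers latent TGF-beta to the matrix, fell by 1.38 and 2.06 (edgeR adjusted p at most 4.19e-05). LTBP4 was also lower in knockout under JQ1 (-0.94, edgeR adjusted p = 0.0102), a call lost without wild-type JQ1 replicate 1 (-0.83, edgeR adjusted p = 0.0516).

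Of 13 TGF-beta and activin target genes, 7 rose and 4 fell with JQ1 in wild type, and 7 rose and 3 fell in knockout. That is 84.6% and 76.9%, against 33.1% and 34.4% of all tested genes. In knockout against wild type, 2 were higher and 3 lower in DMSO, and 1 was higher and 3 lower in JQ1. These shares were 38.5% and 30.8%, against 7.92% and 8.57% of all tested genes. THBS1, whose product thrombospondin can activate latent TGF-beta, averaged 415 CPM in DMSO and 761 CPM in JQ1 in wild type, and 241 and 534 CPM in knockout. It rose with JQ1 by 0.87 and 1.15 and, like TGFBI, was lower in knockout, by a log2 difference of -0.79 in DMSO and -0.51 in JQ1 (edgeR adjusted p at most 1.74e-05). CDKN1A, the cell cycle inhibitor p21, rose by 1.36 and 1.04 and was higher in knockout by 0.54 in DMSO (edgeR adjusted p = 1.55e-09, 1.30e-08 and 5.47e-05). FN1, the matrix protein fibronectin, moved the other way with JQ1 than TGFBI: it fell by 1.26 and 1.28 and was lower in knockout (-0.61 in DMSO and -0.63 in JQ1, edgeR adjusted p at most 2.10e-04).

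Of 10 BMP target genes, 4 rose and 3 fell with JQ1 in wild type (70%), and 3 rose and 2 fell in knockout (50%). Over all tested genes 33.1% and 34.4% passed. ID2 rose as ID1 did: it averaged 1.56 CPM in wild-type DMSO and 4.22 CPM in wild-type JQ1, and rose by 1.43 and 1.88 (edgeR adjusted p = 3.25e-06 and 3.24e-07). ATOH8, a helix-loop-helix transcription factor, went from 9.90 to 1.74 CPM in wild type and from 14.7 to 1.88 CPM in knockout. Like ID3 it fell, by log2 changes of -2.51 and -2.97 (edgeR adjusted p = 1.78e-08 and 2.38e-09), and it was higher in knockout in DMSO by 0.57 (edgeR adjusted p = 0.00944). That genotype call was lost with limma on the authors' signal (0.59 at pseudocounts 1 and 0.5, limma adjusted p = 0.0503 and 0.0526). ID4 did not pass with JQ1 and was lower in knockout, at 0.296 against 1.89 CPM in DMSO and 0.370 against 1.699 CPM in JQ1 (log2 differences -2.67 and -2.2002, edgeR adjusted p = 3.56e-05 and 1.79e-04). So among the 4 ID genes, ID1 and ID2 rose with JQ1, ID3 fell, and ID3 and ID4 differed by genotype in opposite directions in DMSO. MSX2, a homeobox factor, rose by 0.71 and 0.76 (edgeR adjusted p = 0.00754 and 0.00606), and GATA2, a zinc-finger factor, fell by 0.54 and 0.85 (edgeR adjusted p = 0.0171 and 6.46e-04).

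**Figure D4:**
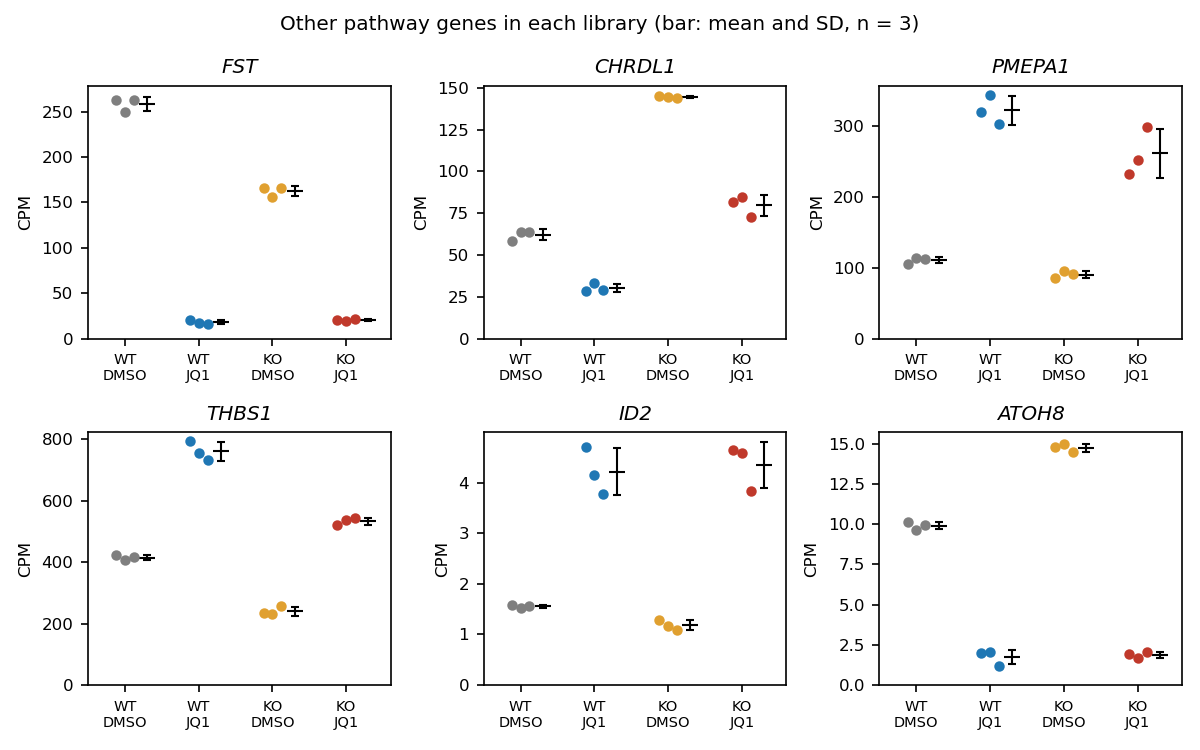
Level in CPM (linear axes from 0) of 6 pathway genes in every library, by group; points are libraries and bars the mean and SD of 3. FST and ATOH8 are low in both JQ1 groups, PMEPA1, THBS1 and ID2 are high in them, and CHRDL1 is higher in knockout in both treatments.

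Across the 12 libraries, Pearson's r between log2 levels of the 10 genes was highest at 0.96 for TGFB1 and ID1, with 0.90 each for SMAD7 with ID1 and with TGFB1, and lowest at -0.94 for TGFBR1 and SMAD3, with -0.91 each for INHBA with TGFB1 and with ID1. The libraries fall into groups, so these values describe the group pattern already given. Among the 11242 genes that averaged 5 CPM or more, those most like TGFBI were NRP1 (r = 0.995) and HMG20B (r = 0.990), and those most like TGFB1 were SLC25A29 (r = 0.993) and NHSL1 (r = 0.992). INHBA was most like NCAM2 (r = 0.991), ID1 like SHB (r = 0.990), ID3 like SPR (r = 0.961), SMAD7 like PPP1R37 (r = 0.955), SMAD3 like COL6A2 (r = 0.976), TGFBR1 like ELOC (r = 0.967) and TGFBR2 like ACSS3 (r = 0.967). BMP4 had the lowest best match, CEP95 (r = 0.816).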

How the data were processed

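Ribosomal RNA was depleted and directional libraries were made, per the labels' protocols. One table deposited by the authors holds estimated counts per gene symbol (39.6% of its values are not whole); the other holds normalized signal for 32828 genes, in which the authors divided each count by a factor for its gene and library; the tool and role are not stated. The submitters' processing notes name Trim Galore, cutadapt, FastQC, MultiQC, kallisto and DESeq2, and the build GRCh38.p10; the annotation and strand setting of the counting are not given in the sources used here. Titles call the samples without drug untreated; the treatment label, DMSO, was followed.

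Estimated counts were rounded, a change the unit required, and genes with low counts were removed with filterByExpr, which kept at least 99.9% of each library's counts. Libraries were scaled with TMM (factors 0.926 to 1.06), and all 12 entered 1 edgeR quasi-likelihood model with a term per group (edgeR 4.0.16, limma 3.58.1, R 4.3.3), two-sided, with Benjamini-Hochberg adjustment over 21698 genes and a threshold of 0.05. SEs were derived from each log2 fold change and its F statistic; correlations were computed on log2 CPM (prior count 2). There were 5 contrasts and 21 alternatives, among them DESeq2 1.42.0, limma on the signal and omission of each library. The procedure was checked on simulated data. The 10 genes and the lists were chosen with earlier results of these data known. Other pathway genes were named by a rule: per list and contrast, up to 3 with the smallest adjusted p, a log2 change of 0.5 or more in size and a mean in 1 of the groups of 1 CPM or more. Gene positions are from GENCODE release 29 and upstream sequences from RefSeq, by symbol; 10 of 10 genes matched, and those of SMAD7 and ID3 lay within annotated exons.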

Additional observations from a re-analysis of the deposited data

Results flagged for a closer look

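The JQ1 response of TGFBI, knockout minus wild type, differed by -0.81 on the log2 scale (edgeR interaction test, adjusted p = 0.0208). Within each genotype all 3 JQ1 libraries lay above all 3 DMSO libraries. The rise was 2.36-fold in wild type and 1.34-fold in knockout. The JQ1 response of FST differed by 0.86 (edgeR interaction test, adjusted p = 0.00838): its fall was 14.3-fold in wild type and 7.88-fold in knockout, to 18.1 ± 2.18 and 20.6 ± 0.932 CPM (SD, n = 3 each).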

How the results depend on the processing

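Over the alternatives, the called results of the 10 genes gave 398 values, of which 375 kept direction and call, 23 kept direction but not the call and none changed direction. In wild type 5 to 9 of the 10 genes, and in knockout 7 to 9, passed for JQ1. Of the 75 other pathway genes, 37 to 47 and 35 to 44 passed. Calls over all tested genes moved too: from 5647 of 22263 to 8740 of 20944 in wild type. In knockout they ran from 5715 of 19828 to 7659 of 21698. For genotype and the interaction, all-gene counts in several settings are given in the last paragraph. Leaving out 1 library at a time gave 1 to 2 of the 10 genes and 9 to 14 pathway genes for knockout against wild type in DMSO, 1 to 4 and 6 to 14 in JQ1, and 0 to 1 and 1 to 2 for the interaction; the 0 came with edgeR in the 7 omissions named above, while over all 12 libraries DESeq2 called 1 and 1 had an unadjusted edgeR p under 0.05. In JQ1, 2 of the 10 genes passed with DESeq2 and with limma on the authors' signal (pseudocount 1 or 0.5), 3 without a low-count filter, and 6 pathway genes with only the groups compared; the interaction gave 2 pathway genes with DESeq2. The cause of these shifts was not tested.

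Replicate numbers did not pair the libraries: none of 18 same-numbered pairs correlated above 0.1 (r from -0.115 to 0.0786), and 2 of 12 libraries matched their own number best. With the replicate block, 2 of the 10 genes passed for knockout against wild type in JQ1 (INHBA at -0.34, edgeR adjusted p = 0.0476, beside TGFBI), 8 pathway genes against 11, and no other count for the 10 genes changed.

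Reversed values were small and uncalled. For knockout against wild type in DMSO, TGFBR1 was -0.0365 with library totals, -0.0193 with limma at either pseudocount, and -0.0153 to 0.0542 over omissions, and TGFB1 was -0.113 to 0.0992. In JQ1, TGFB1 was -0.00234 with library totals and -0.148 to 0.139 over omissions, ID1 -0.190 to 0.0524, SMAD7 -0.274 to 0.0304 and TGFBR2 -0.0861 to 0.00478. For the interaction, SMAD7 was 0.00794 with library totals, 0.00908 with a mean of at least 1 CPM, 0.0107 with limma at either pseudocount and -0.122 to 0.182 over omissions. BMP4 was 0.00429, 0.00389 and -0.119 to 0.0852 in the first 2 settings and over omissions. TGFB1 was -0.122 to 0.165, SMAD3 -0.115 to 0.00611 and ID1 -0.0784 to 0.163 over omissions. The cause was not tested.

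Over all genes, knockout against wild type gave 1718 calls in DMSO (2619 with only the groups compared, 2650 without knockout JQ1 replicate 3, 1092 to 1102 on leaving out the third knockout or the first or second wild-type DMSO library) and 1860 in JQ1 (922 with only the groups compared, 1223 without wild-type JQ1 replicate 2). The interaction gave 29, against 139 with DESeq2, 236 without a filter and 8 to 88 over omissions. With library totals alone, calls for JQ1 in wild type split 2298 higher and 5368 lower, against 3665 and 3522.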
